A study of Mus musculus with 6 samples.

Results

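Histone genes and testis histone variants were examined in RNA-seq libraries from mouse testis, 3 titled Middle and 3 titled Control. The members were chosen by symbol, as H1f, H2a, H2b, H3, H4 and macroH2A genes, and numbered 108 of the 38715 genes in the table. Middle was read as the MES-exposed group, because the design names one exposed group beside the controls and the titles hold no other. What MES stands for, its dose and duration, mouse strain and age, and any allele or agent common to both groups were not given in the sources used here. Nothing in the labels ties each library to its own animal, and the p-values thus rest on the spread between these libraries alone.

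Histones package DNA into nucleosomes. Replication-dependent histone genes lie in clusters and are transcribed in S phase, and their messenger RNAs usually end in a conserved stem-loop instead of a poly(A) tail. Replacement histones such as H3.3, H2A.Z and macroH2A are made throughout the cell cycle from polyadenylated messages, and the H2A.X gene is known to give messages with either end. Male germ cells add testis variants, which are loaded during meiosis and in spermatids before transition proteins and protamines take over the DNA.

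By symbol, 61 members were replication-cluster genes, 26 were testis variants, 13 were replacement histones and 8 were pseudogene symbols. The replication-cluster genes sat mainly on chromosome 13, with 49 genes there, 9 on chromosome 3, 2 on chromosome 11 and 1 on chromosome 6. Among the testis variants, 15 were on the X chromosome and 2 on the Y chromosome. A group mean of 1 RPKM or more, in either group, was required for a test, and 48 members had it, namely 11 replication-cluster genes, 20 testis variants, 11 replacement histones and 6 pseudogene symbols. The antisense gene H3f3aos fell among the replacement histones by its symbol alone. Macroh2a3, which the symbol also placed there, is annotated in RefSeq as a transcribed pseudogene, as is H2af-ps2.

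Recovered totals lay between 38820385 and 58389391 reads per library. At these totals a 1 kb gene with 6 reads, which is 3 read pairs if both mates were counted, had 0.103 to 0.155 RPKM. Library Middle 1 stood apart on the first principal component, with a score of -27.0, against -0.97 and -4.90 in the other Middle libraries and 6.48, 11.4 and 15.01 in the Control libraries. The rank correlation of a gene's deviation with its transcript GC content was 0.47, 0.018 and -0.070 in the Middle libraries and -0.31, -0.23 and -0.26 in the Control libraries. GC trend and group can therefore not be told apart, and values with the GC trend removed are given for the members described in most detail and shown for all with a transcript in the plot against GC content. No marker on the spermatogonium, spermatocyte and spermatid lists averaged below 0.1 RPKM. In bulk tissue, fewer cells of a type and less RNA per cell cannot be told apart.

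Between the groups, no histone member passed the test. The lowest adjusted p among the 48 was 0.18, for H2ax (limma-trend on log2(RPKM + 1), two-sided, Benjamini-Hochberg over 15040 genes, threshold 0.05). Over all genes 8 of 15040, or 0.0532%, passed, 0.00665% as higher and 0.0465% as lower in Middle. At an unadjusted p under 0.05 there were 8 of 48 members, 5 higher and 3 lower in Middle, against 20.7% of all genes tested, 11.7% higher and 9.02% lower. The groups did not overlap for 8 of 48 members, 4 higher and 4 lower in Middle, against 29.3% of all genes, 17.9% higher and 11.4% lower. Both shares among the members were below the background of these libraries. The log2 fold change was above 0 for 26 of 48 members, against 55.9% of all genes. H2bc26-ps and H2al1j reached the filter in 1 group only, the one where each was higher, so the filter favoured a difference in them. Without them the unadjusted count was 7 of 46 members, the groups did not overlap for 7 of 46 and 25 of 46 were above 0.

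**Figure D1:**
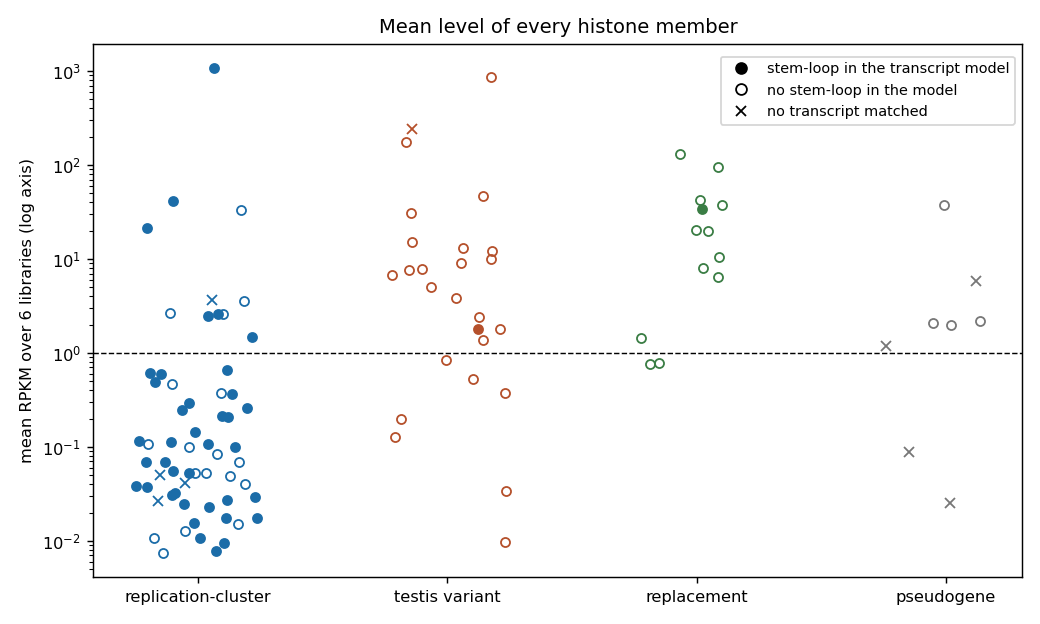
Mean RPKM over the 6 libraries (log axis) of each of the 108 members, by class. Filled points have a stem-loop in their transcript model, open points have none and crosses had no matched transcript. The dashed line is at 1 RPKM. Most replication-cluster genes lie below it, with H2ac19 far above the others.

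Replication-cluster genes were mostly near the floor. Only 11 of 61 passed the filter and 31 had a mean below 0.1 RPKM. Of the 57 with a matched transcript, 30 had more than 50% of their 50-base windows in other genes. The single values of such near-identical copies are uncertain, low ones included. The 50 untested genes had means of at most 0.66 RPKM, with H2bc11, an H2B gene, and H4c8, an H4 gene with 0.61 RPKM, at the top. One gene held most of the class. H2ac19, an H2A gene on chromosome 3 (GRCm39 chr3:96147065-96147592, minus strand, a single exon block), took 86.5 to 87.9% of the reads of the class in the Middle libraries and 84.9 to 85.8% in the Control libraries.

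H2ac19 had 1379, 1035 and 1177 RPKM in the Middle libraries, against 876, 950 and 1005 RPKM in the Control libraries. Every Middle library lay above every Control library, with Middle 1 the highest of all. The group means were 1197 ± 173 RPKM in Middle and 944 ± 64.9 RPKM in Control (SD, n = 3 each). The log2 fold change was 0.34 ± 0.11 (SE), with an unadjusted p of 0.015 in the same limma fit and an adjusted p of 0.18, so the difference did not pass. With the GC trend removed the log2 fold change was 0.24, and the transcript has 64.2% GC.

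The H2ac19 value cannot be separated from that of its neighbour. H2ac18, the H2A gene next to it on the plus strand (GRCm39 chr3:96152813-96153398), contains every 50-base window of H2ac19 in the GENCODE M21 transcripts, and 89.2% of its own windows occur in H2ac19. The deposited values nevertheless gave 169658 reads to H2ac19 and 7362 reads to H2ac18 over the 6 libraries, 23.0 times as many. How reads with several matches were placed was not given in the sources used here. H2ac18 had 51.8, 39.5 and 44.03 RPKM in the Middle libraries, against 36.0, 40.2 and 38.9 RPKM in the Control libraries. These groups overlapped, through Middle 2, and the log2 fold change of 0.22 was 0.13 with the GC trend removed. Summed, the pair had 1431, 1075 and 1221 RPKM in the Middle libraries and 912, 990 and 1044 RPKM in the Control libraries. With near-identical copies pooled, the log2 fold change of the H2ac19 group was 0.32 (adjusted p = 0.19 in the limma fit).

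Genes that overlap H2ac19 add a further uncertainty. Gm20632, annotated on the opposite strand across H2ac19, held 170113 reads, against 169658 in H2ac19 itself, and the 138-base gene Gm54987 held 81379. Reads of this interval thus appear in the values of several genes, and the table does not show which strand they came from. An overlapping gene was annotated for 35 members, 15 of them tested. Many of the partners were short genes opposite an H2A gene, among them Gm55497, whose 5361 reads equalled 38.0% of those of H2ax.

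Whether a histone message can reach a messenger RNA library depends in part on its 3' end. A stem-loop with a 6-base-pair stem and a 4-base loop was searched for in GENCODE M21 transcripts, which were matched for 99 members. For each member only the transcript nearest the deposited gene length was searched, so a stem-loop in another transcript would be missed. It was present in 39 of 57 matched replication-cluster genes, in 1 of 25 matched testis variants, H1f6, and in 1 of 13 matched replacement genes, H2ax. Among all 58797 protein-coding transcripts the share was 1.35%. In 13 replication-cluster models the transcript ended at or within 16 bases of the stop codon, too short to hold it. Of the 44 longer models 39 had one, namely 6 of the 9 tested genes and 33 of the 35 untested genes. The tested genes H2bc22, H2bc21 and H2bc4 had longer models with no stem-loop. Models of H2bc22 and H2bc21 carried a poly(A) signal (AATAAA or ATTAAA) in their last 60 bases, as did 50.99% of all protein-coding transcripts. Among coding testis variant models, 10 of 24 likewise ended within 16 bases of the stop codon, H2bc1 and H2ac1 among them. Whether those genes have a stem-loop could not be seen, and 1 of the 14 longer testis variant models had it.

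The 8 sites below are those of the tested members, shown because this end marks replication-type messages. Each is 30 bases of GRCm38 sequence, 5′ to 3′ on the gene's strand, with the stem-loop in capitals.
H2ac19 (chr3:96239775-96239804, minus): aaaaaGGCTCTTTTCAGAGCCacccactga
H2ac18 (chr3:96246027-96246056, plus): aaaaaGGCTCTTTTCAGAGCCacccactga
H2ac20 (chr3:96220409-96220438, minus): aaaaaGGCTCTTTTTAGAGCCaccaaatct
H3c1 (chr13:23761881-23761910, minus): ccaaaGGCTCTTTTCAGAGCCacacacgat
H1f2 (chr13:23739507-23739536, plus): caaaaGGCTCTTTTCAGAGCCaccactccc
H4c1 (chr13:23760791-23760820, minus): ccaaaGGCCCTTCTCAGGGCCgcccacatt
H1f6 (chr13:23696520-23696549, plus): ccaaaGGCTCTTTTAAGAGCCacttacata
H2ax (chr9:44335235-44335264, plus): acaaaGGCCCTTTTAAGGGCCaccacctcc

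The sites of H2ac19 and H2ac18 were identical over all 30 bases. The form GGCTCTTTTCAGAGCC was the commonest, in 23 members. A stem starting GGCCC occurred in most H4 genes with a site and in H2ax. H1f6, the testis linker histone H1t, shared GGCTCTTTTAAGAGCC with 5 replication-cluster genes. H1f2, H4c1, H1f6 and H2ax also had a poly(A) signal near the end of the model, whereas H2ac19, H2ac18, H2ac20 and H3c1 had none. A match in a model is a description and does not show which end the sequenced molecules had.

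The other replication-cluster genes above the filter had much lower levels than H2ac19. H2bc22, an H2B gene, had 35.7, 29.1 and 36.6 RPKM in the Middle libraries, against 32.9, 34.0 and 30.8 RPKM in the Control libraries. H4c1, an H4 gene, had 25.4, 19.2 and 20.7 RPKM in Middle and 20.1, 20.1 and 21.1 RPKM in Control. For both genes the groups overlapped, and their log2 fold changes were 0.05 ± 0.10 and 0.08 ± 0.10 (SE), or -0.02 and 0.0072 with the GC trend removed. H2ac21, an H2A gene, had 3.47, 3.77 and 4.31 RPKM in Middle and 2.61, 2.93 and 4.18 RPKM in Control, overlapping through Control 3, and its log2 fold change of 0.21 was 0.12 with the GC trend removed. H2ac25, an H2A gene on chromosome 11, had 3.68, 3.92 and 3.45 RPKM in Middle and 3.32, 3.97 and 3.83 RPKM in Control. It lies across Trim17, which averaged 159 RPKM, so the origin of its reads is uncertain. The remaining tested genes were H2bc21, H3c1, H2bc4, H1f2 and H2ac20, with log2 fold changes between -0.06 and 0.08.

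As a class, 7 of 11 tested replication-cluster genes had a log2 fold change above 0, with a median of 0.05, against 0.03 for all genes tested. The groups did not overlap for 1 of 11, H2ac19, against 29.3% of all genes and 17.9% in that direction. Summed over all 61 genes the class had 1324 ± 185 RPKM in Middle and 1060 ± 69.1 RPKM in Control (SD, n = 3 each). Without H2ac19 the sums were 139, 114 and 128 RPKM in Middle and 111, 119 and 119 RPKM in Control, and the groups overlapped. The summed reads of the class gave a log2 fold change of 0.31, against the median of 0.05 per gene, and H2ac19 held most of those reads. By histone type the summed levels in Middle and Control were 40.8 ± 3.65 and 39.7 ± 1.22 RPKM for H2B, 23.7 ± 2.96 and 22.3 ± 0.75 RPKM for H4, 3.87 ± 0.57 and 3.56 ± 0.29 RPKM for H3 and 3.32 ± 0.28 and 2.82 ± 0.45 RPKM for H1.

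**Figure D2:**
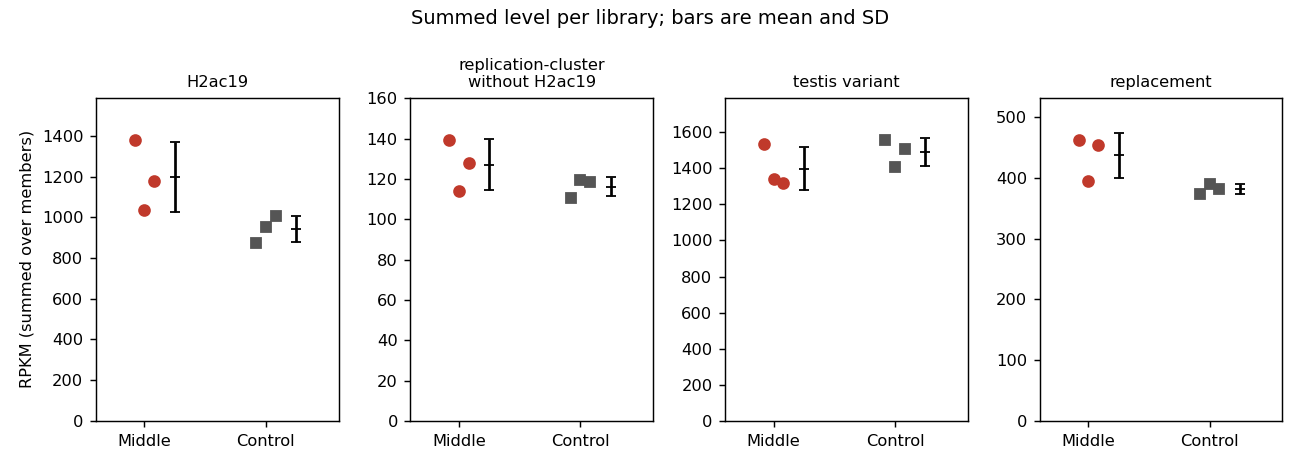
RPKM summed over members in each library, Middle left and Control right in each panel, with the mean and SD beside the points. H2ac19 is drawn apart from the other replication-cluster genes. Its Middle points lie above its Control points, while the sums of the other replication-cluster genes and of the testis variants overlap between groups. The replacement sums lie above Control in all Middle libraries, the lowest at 395 RPKM against at most 390.

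The testis variants were led by linker histones. H1f7, a linker histone of spermatids (GRCm39 chr15:98153867-98155174, minus strand), had 911, 800 and 763 RPKM in the Middle libraries, against 925, 822 and 893 RPKM in the Control libraries. The groups overlapped, and H1f7 held 73.3 to 74.7% of the reads of all testis variants across the 6 libraries. Its log2 fold change was -0.10 ± 0.08 (SE), and -0.18 with the GC trend removed.

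H1f9, another spermatid linker histone (chr11:94858419-94859282, plus strand), had 242, 217 and 224 RPKM in Middle and 268, 247 and 244 RPKM in Control. Its highest Middle library was just below its lowest Control library. The log2 fold change was -0.15 ± 0.07 (SE), with an adjusted p of 0.24 in the limma fit. H1f6, the linker histone H1t of meiotic cells, was far lower, at 2.27, 1.03 and 1.87 RPKM in Middle and 1.6, 2.10 and 2.03 RPKM in Control. Its Middle libraries spanned the Control libraries. H1f8, the oocyte linker histone, had a mean of 0.0097 RPKM.

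The H2A and H2B variants of spermatids followed. H2al2a, an H2A variant of condensing spermatids known to act with transition proteins, had 195, 164 and 171 RPKM in Middle and 166, 169 and 184 RPKM in Control, with no separation. H2al3, an X-linked H2A variant, had 49.3, 40.0 and 36.7 RPKM in Middle and 56.5, 45.4 and 50.1 RPKM in Control, overlapping through Middle 1. H2bl1, a spermatid H2B variant, had 27.0, 29.8 and 28.3 RPKM in Middle and 35.2, 29.7 and 33.4 RPKM in Control, overlapping through Middle 2. The log2 fold changes of H2al3 and H2bl1 were -0.27 ± 0.12 and -0.20 ± 0.08 (SE), with adjusted p of 0.26 and 0.22 in the limma fit, and -0.23 and -0.16 with the GC trend removed.

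The H2al1 genes form an X-linked family of near-identical H2A copies. The 14 H2al1 genes summed to 100.1, 83.0 and 84.6 RPKM in Middle and 95.4, 82.1 and 91.9 RPKM in Control, so the groups overlapped. Of these, 11 passed the filter, and their single values are uncertain, since 11 of the 14 form one group in which members share most 50-base windows. H2al1f, the highest, had 18.3, 13.9 and 12.9 RPKM in Middle and 18.001, 12.5 and 14.8 RPKM in Control. H2al1f, H2al1i and H2al1c had 100% of their windows in another gene. H2al1e had 100% over several genes together, and at most 88.8% in any single gene, H2al1b. H2al1n, of which 20% of windows were shared, was the one copy whose groups did not overlap, at 9.45 to 10.02 RPKM in Middle and 10.2 to 10.9 RPKM in Control. H2al1m, H2al1g, H2al1k, H2al1b and H2al1a had log2 fold changes between -0.16 and 0.07, and H2al1e had 0.17. H2al1j had 86 reads in all 6 libraries together and reached the filter through Middle alone. Its log2 fold change of 0.34 ± 0.16 (SE) was 0.73 with pseudocount 0.1, 0.76 with limma-voom and 0.19 without Control 3.

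The paired meiotic variants had low values here. H2bc1 and H2ac1, known as TH2B and TH2A, are neighbours on chromosome 13 (chr13:24117756-24118139, minus strand, and chr13:24118445-24118834, plus strand). H2bc1 had 3.96, 2.96 and 3.83 RPKM in Middle and 3.65, 3.75 and 4.70 RPKM in Control. H2ac1 had 1.41, 1.26 and 1.59 RPKM in Middle and 1.53, 2.46 and 2.64 RPKM in Control. Both sets overlapped, H2ac1 through Control 1. H2ac1 had the lowest log2 fold change of all tested members, -0.39 ± 0.14 (SE), with an adjusted p of 0.20 in the limma fit and 212 reads in all, and -0.48 with the GC trend removed. Both models end at the stop codon, so reads beyond it were not counted for them. The models thus do not show which 3' end these messages have. With a messenger RNA kit, a low value need not mean few messages. H3f4, the testis H3 variant H3t, had 2.73, 2.55 and 2.52 RPKM in Middle and 2.69, 1.95 and 1.98 RPKM in Control, overlapping through Control 1, and its log2 fold change of 0.17 was 0.08 with the GC trend removed.

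Among the 20 tested testis variants 7 had a log2 fold change above 0, and the median was -0.08, against 0.03 for all genes. Of these 20, 11 were H2al1 genes, most of them near-identical copies, so the count and the median weigh that family heavily. Outside it, only H2al2a and H3f4 were above 0. The groups did not overlap for 2 of 20, H1f9 and H2al1n, both lower in Middle, against 29.3% of all genes and 11.4% in that direction. Without H2al1j, 6 of 19 were above 0. Summed over all 26 genes the class had 1399 ± 120 RPKM in Middle and 1490 ± 76.7 RPKM in Control (SD, n = 3 each), with overlap. The median of the replication-cluster genes lay 0.13 above that of the testis variants on the log2 scale, with an SD of 0.10 between libraries within a group. In the same libraries 1 of 7 round spermatid markers had a log2 fold change above 0, and their summed level was 285 to 302 RPKM in Middle and 326 to 349 RPKM in Control. Of 7 elongating spermatid markers 1 was above 0, with sums of 26572 to 29127 RPKM in Middle and 28261 to 31212 RPKM in Control. Of 5 tested early spermatocyte markers 2 were above 0, with sums of 106 to 172 RPKM in Middle and 169 to 187 in Control. Of 7 pachytene spermatocyte markers 4 were above 0, with sums of 3307 to 3364 RPKM in Middle and 3354 to 3363 in Control. All 5 tested Sertoli cell markers were above 0, with sums of 173 to 183 RPKM in Middle and 166 to 172 in Control. Leydig cell markers were above 0 in 2 of 4, and macrophage markers in 3 of 3 tested. None of these markers passed the test, and their part in the variants' values was not tested.

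Replacement histones had moderate levels in every library. H3f3b, one of the H3.3 genes, had 150, 122 and 152 RPKM in Middle and 115, 125 and 122 RPKM in Control, overlapping through Middle 2. H3f3a, the other H3.3 gene, had 36.5, 36.0 and 42.3 RPKM in Middle and 36.6, 37.2 and 36.7 RPKM in Control. Their log2 fold changes were 0.22 ± 0.09 and 0.05 ± 0.07 (SE), and for H3f3a only Middle 3 lay above the Control libraries.

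H2ax encodes H2A.X, the histone phosphorylated at DNA breaks and on the meiotic sex chromosomes (GRCm39 chr9:44245991-44247374, plus strand). It had 42.4, 36.2 and 38.0 RPKM in the Middle libraries, against 26.5, 30.4 and 29.9 RPKM in the Control libraries. Every Middle library was above every Control library, and the log2 fold change was 0.41 ± 0.08 (SE). The adjusted p was 0.18 in the limma fit, and the log2 fold change with the GC trend removed was 0.32. Its reads overlap those of Gm55497.

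H1f10, a somatic linker histone, had 52.0, 41.7 and 48.3 RPKM in Middle and 36.4, 38.6 and 39.4 RPKM in Control. Macroh2a1, a macroH2A of silent chromatin, had 23.1, 20.98 and 21.8 RPKM in Middle and 17.4, 18.9 and 18.2 RPKM in Control. Neither gene overlapped between groups, and their log2 fold changes were 0.30 ± 0.09 and 0.26 ± 0.06 (SE), each with an adjusted p of 0.18 in the limma fit. With the GC trend removed they were 0.22 and 0.21. H1f10 has the highest GC content of the tested members with a transcript, 71.3%, and Gm5577 on the plus strand overlaps it.

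The H2A.Z genes had smaller differences. H2az1 had 103, 92.2 and 103 RPKM in Middle and 92.2, 92.7 and 90.8 RPKM in Control. H2az2 had 12.2, 9.75 and 11.8 RPKM in Middle and 9.16, 10.1 and 9.94 RPKM in Control. In both genes Middle 1 and Middle 3 lay above all Control libraries and Middle 2 did not. H1f0, the linker histone of non-dividing cells, had 7.42, 6.21 and 6.72 RPKM in Middle and 5.44, 6.13 and 6.94 RPKM in Control. Macroh2a3 had 22.1, 19.1 and 18.4 RPKM in Middle and 24.4, 21.7 and 16.6 RPKM in Control, with Pvt1 annotated across it. H2aj and Macroh2a2 had log2 fold changes of 0.14 and 0.07, with overlapping groups.

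As a class by symbol, 10 of 11 tested members had a log2 fold change above 0, against 55.9% of all genes. The exception was Macroh2a3, annotated as a pseudogene. The class median was 0.14, against 0.03 for all genes. The groups did not overlap for 3 of 11, H2ax, Macroh2a1 and H1f10, all higher in Middle, against 17.9% of all genes in that direction. The class, with Macroh2a3 and H3f3aos included, summed to 462, 395 and 453 RPKM in Middle and 374, 390 and 382 RPKM in Control, without overlap. With the GC trend removed the median was 0.08. In the same libraries 82 of 83 ribosomal protein genes had a log2 fold change above 0, and their sums were 7998 to 10154 RPKM in Middle and 7252 to 7732 RPKM in Control. Mitochondrially encoded genes summed to 13154 to 17853 RPKM in Middle and 9360 to 11809 RPKM in Control. The part of these shifts in the replacement histones was not tested.

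**Figure D3:**
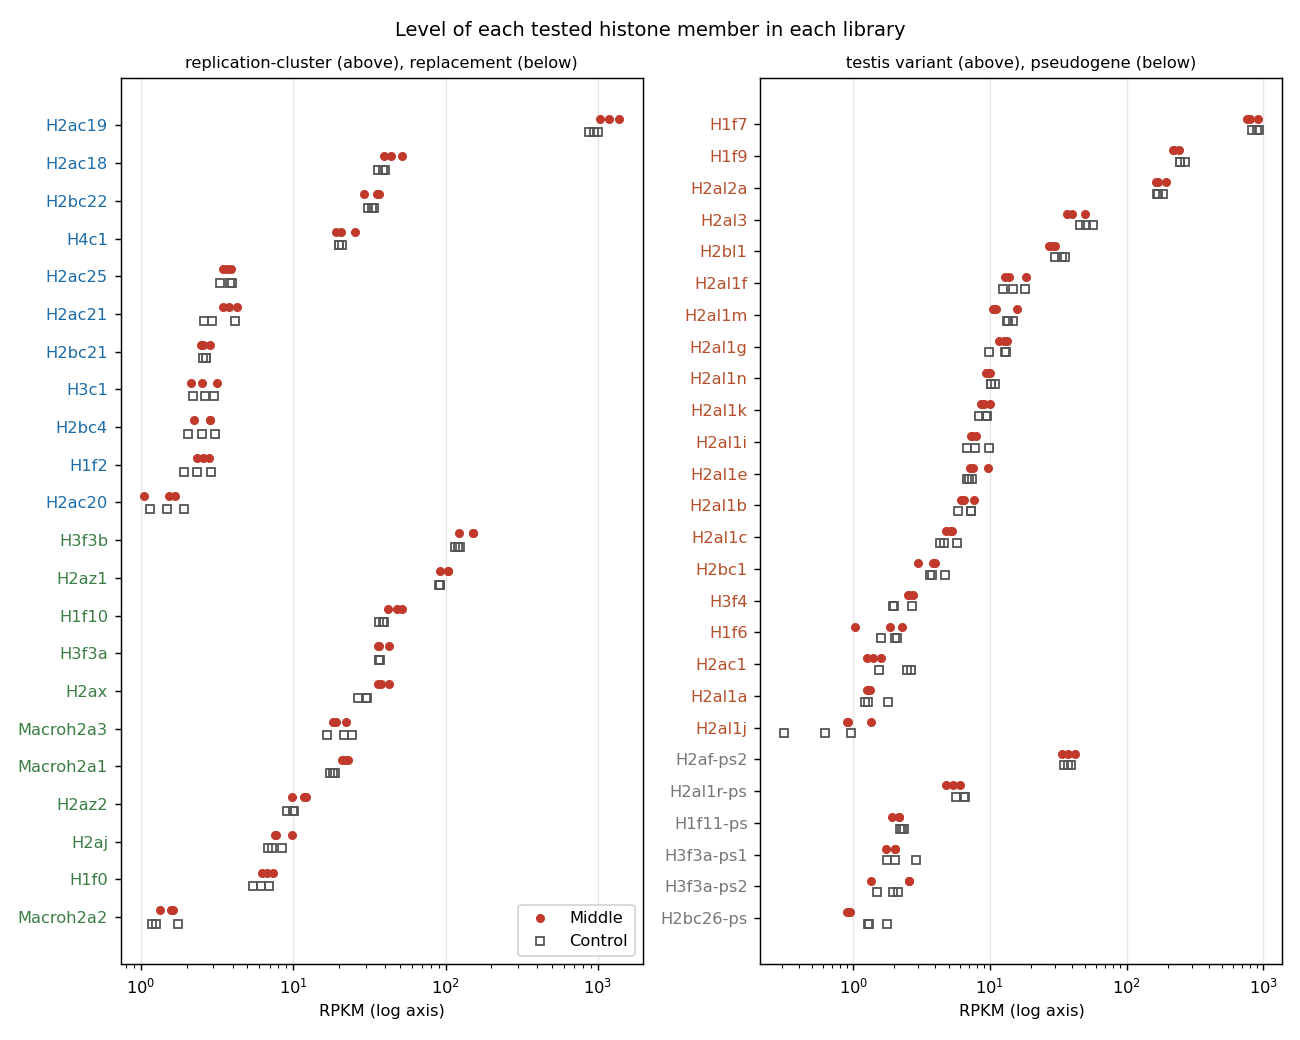
RPKM of each of the 48 tested members in each library (log axis), Middle as filled circles above Control as open squares. In the left panel replication-cluster genes stand above replacement histones, and in the right panel testis variants stand above pseudogene symbols. H2ac19 and H1f7 have the highest levels, and most members have overlapping groups.

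**Figure D4:**
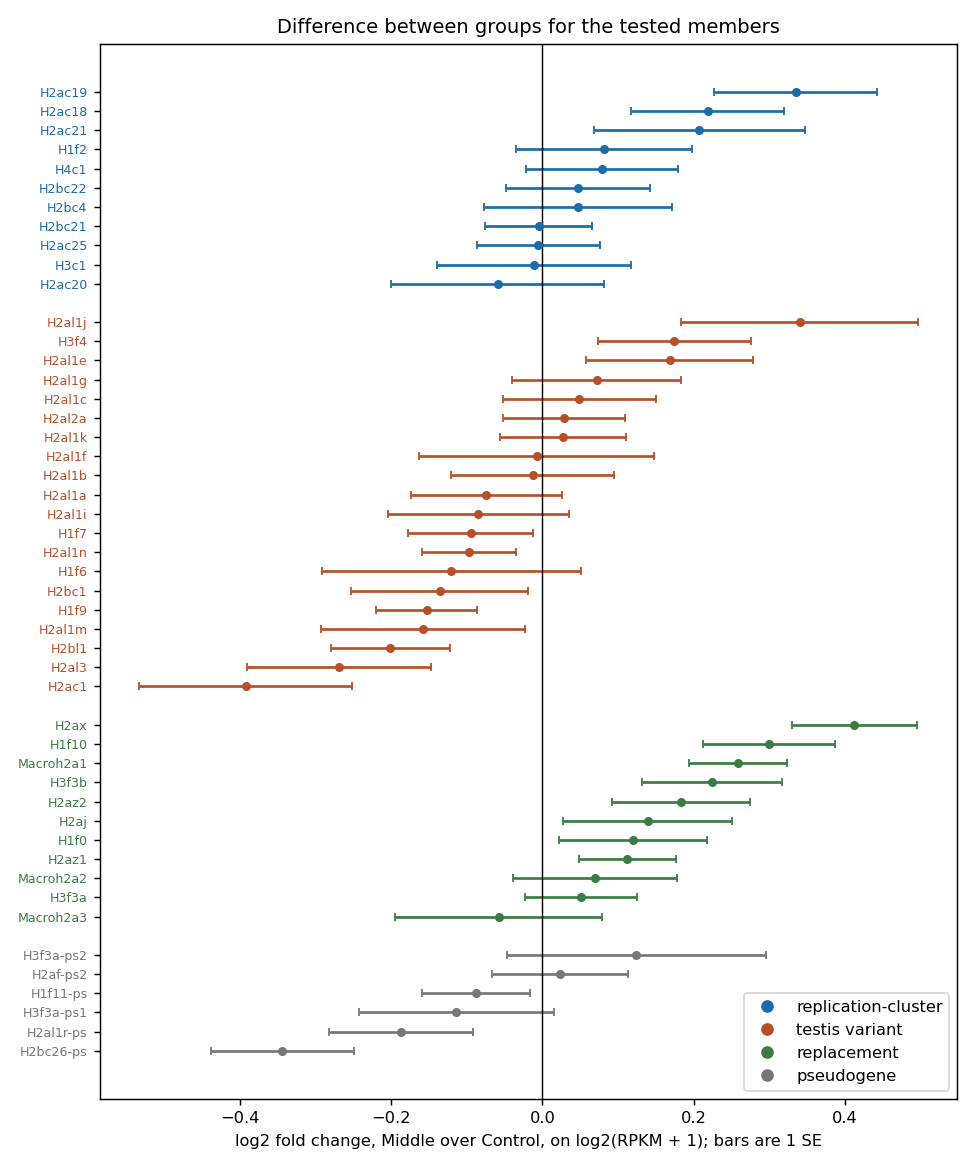
Log2 fold change, Middle over Control, of the 48 tested members on the log2(RPKM + 1) scale, with bars of 1 SE, ordered within each class. Values run from -0.39 for H2ac1 to 0.41 for H2ax, and none passed the test.

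The 6 tested pseudogene symbols were H2af-ps2, H2al1r-ps, H1f11-ps, H3f3a-ps1, H3f3a-ps2 and H2bc26-ps. H2af-ps2 had 42.05, 37.2 and 33.7 RPKM in Middle and 37.0, 34.8 and 39.0 RPKM in Control, and 65.5% of its windows occur in H2ac19. H2bc26-ps had 0.94, 0.90 and 0.93 RPKM in Middle and 1.77, 1.30 and 1.28 RPKM in Control. H1f11-ps had 2.16, 1.93 and 2.18 RPKM in Middle and 2.28, 2.21 and 2.36 RPKM in Control. For H2bc26-ps and H1f11-ps each Middle value was below each Control value, with log2 fold changes of -0.34 and -0.09 and adjusted p of 0.18 and 0.48 in the limma fit. That is 2 of 6 symbols without overlap, against 29.3% of all genes and 11.4% in that direction. H2al1r-ps had 6.05, 5.39 and 4.77 RPKM in Middle and 5.69, 6.51 and 6.63 RPKM in Control. H3f3a-ps1 had 1.75, 2.04 and 2.03 RPKM in Middle and 2.87, 1.75 and 2.01 RPKM in Control. H3f3a-ps2 had 2.57, 1.36 and 2.54 RPKM in Middle and 1.502, 2.13 and 1.94 RPKM in Control. The groups of the other 4 symbols overlapped, and H2bc26-ps, which reached the filter through Control alone, had 137 reads in all. Its log2 fold change was -0.59 with pseudocount 0.1 and -0.63 with limma-voom.

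**Figure D5:**
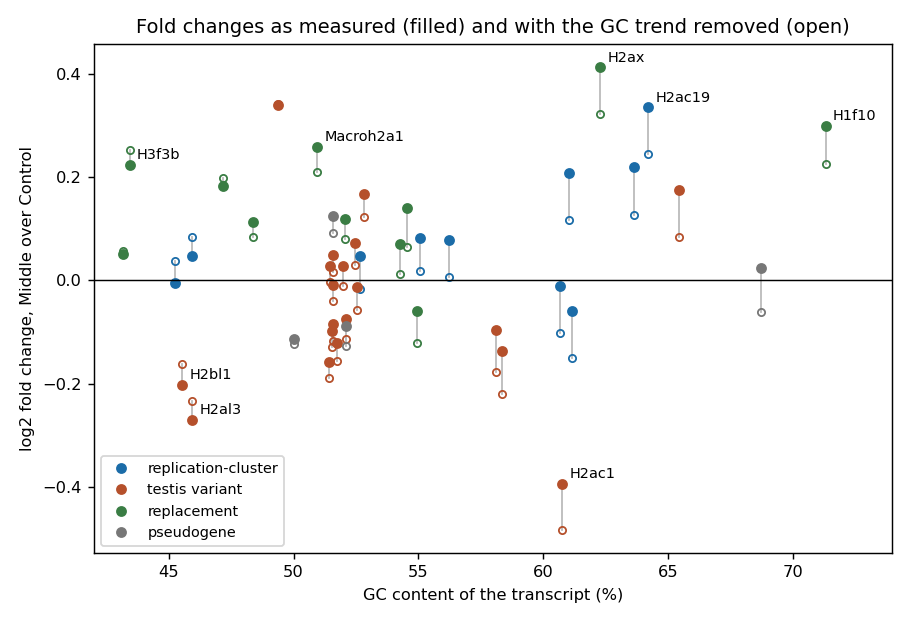
Log2 fold change of the tested members with a transcript (vertical axis) against the transcript's GC content in percent (horizontal axis), by class. Filled points are the values as measured and open points those with each library's GC trend removed, joined by a line. H2ax, H2ac19 and H1f10, at 62.3, 64.2 and 71.3% GC, each move down and stay above 0.

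Promoter windows of the classes held different shares of known motifs. RefSeq windows from 250 bases before to 50 bases after the start (GRCm38.p6) were found for 87 members, and motifs were searched on both strands. CCAAT, the box bound by NF-Y, was in 88.5% of 52 replication-cluster promoters, in 24% of 25 testis variants and in 60% of 10 replacement histones, against 37.9% of all 27025 promoters. The share of the testis variants rested on one family: none of the 18 H2al promoters, mostly of near-identical copies, held CCAAT, and 6 of the 7 others did, H1f7 being the exception. TATAAA was in 57.7% of replication-cluster promoters, 20% of testis variants and 10% of replacement histones, against 14.2% of all. ATTTGCAT, the octamer bound by OCT1 at H2B genes, was in 19.2, 8 and 10% of these classes, against 1.75% of all. TGACGTCA, the cyclic AMP response element, was in 7.69% of replication-cluster promoters and in none of the testis variant or replacement promoters, against 1.88% of all. Neighbouring H2A and H2B genes on opposite strands can lie close enough for their windows to overlap. The octamer was in both windows of H2ac12 and H2bc12, H2ac8 and H2bc8, and H2ac1 and H2bc1. TGACGTCA was in both windows of H2ac11 and H2bc11. A single site may thus be counted for both genes of a pair.

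The windows of 3 members are shown to set a cluster gene beside a testis variant inside the cluster and one outside it. They are written 5′ to 3′ on the gene's strand with motif letters in capitals, where ATTGG is CCAAT on the other strand. No match of one motif overlapped a match of another in them.
H2ac19 (GRCm38.p6 chr3:96240325-96240624, minus): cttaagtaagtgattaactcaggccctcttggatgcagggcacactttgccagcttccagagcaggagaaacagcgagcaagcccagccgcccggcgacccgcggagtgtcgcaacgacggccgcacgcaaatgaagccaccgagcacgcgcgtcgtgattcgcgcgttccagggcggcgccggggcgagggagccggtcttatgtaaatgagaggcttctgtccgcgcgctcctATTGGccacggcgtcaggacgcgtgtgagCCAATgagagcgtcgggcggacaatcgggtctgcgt
H2bc1 (GRCm38.p6 chr13:23934107-23934406, minus): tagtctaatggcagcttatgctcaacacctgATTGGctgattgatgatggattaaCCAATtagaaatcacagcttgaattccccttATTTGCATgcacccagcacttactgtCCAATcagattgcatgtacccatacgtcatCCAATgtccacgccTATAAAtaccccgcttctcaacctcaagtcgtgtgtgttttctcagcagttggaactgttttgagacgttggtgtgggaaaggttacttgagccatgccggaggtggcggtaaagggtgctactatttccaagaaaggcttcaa
H1f7 (GRCm38.p6 chr15:98257258-98257557, minus): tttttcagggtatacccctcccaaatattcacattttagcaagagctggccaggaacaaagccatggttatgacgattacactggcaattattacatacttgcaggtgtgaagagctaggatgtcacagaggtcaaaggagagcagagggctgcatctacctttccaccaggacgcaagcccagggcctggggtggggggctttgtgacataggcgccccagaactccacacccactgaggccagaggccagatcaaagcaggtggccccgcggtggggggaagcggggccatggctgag

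H2ac19 had 2 CCAAT matches and no TATAAA in this window. H2bc1 had 4 CCAAT matches, 1 TATAAA and 1 octamer, and H2ac1 likewise had 4 CCAAT matches, 2 TATAAA and 1 octamer. H1f7 had none of the 4 motifs. These genes differed in level in another order, with H2ac19 at a mean of 1070 RPKM, H1f7 at 852 RPKM and H2bc1 at 3.81 RPKM over the 6 libraries. A match is not a bound site, and no match says only that these letters are not in this window.

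Genes that act on histones and their messages were described from lists. Of the genes for histone mRNA processing and transcription, 18 were tested, none passed, 7 had a log2 fold change above 0 and the median was -0.02. Slbp, which binds the stem-loop, had 20.7, 23.9 and 22.8 RPKM in Middle and 24.3, 23.3 and 22.9 RPKM in Control, overlapping. The smallest p belonged to Cpsf1, Ncbp1 and Sympk, a cleavage factor, a cap-binding protein and the scaffold of the cleavage complex, with log2 fold changes of 0.20, 0.17 and 0.17. Of 30 tested histone chaperones none passed, 22 were above 0 and the median was 0.07. Chaf1b, Vps72 and Dnajc9, a subunit of the CAF-1 assembly complex, an H2A.Z chaperone and an H3-H4 chaperone, had log2 fold changes of 0.30, 0.34 and -0.18. Nasp, which holds linker and H3 histones and is abundant in testis, had 248, 338 and 301 RPKM in Middle and 369, 340 and 363 RPKM in Control. Its groups did not overlap, with Middle 1 lowest, and its log2 fold change was -0.28 (adjusted p = 0.22 in the limma fit).

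All 22 tested DNA replication genes had a log2 fold change above 0, with a median of 0.15, and none passed the test. Lig1, Mcm6 and Rrm1, a DNA ligase, a helicase subunit and a subunit of ribonucleotide reductase, had 0.30, 0.31 and 0.23. The list summed to 240 to 271 RPKM in Middle and 217 to 233 RPKM in Control. Of 7 spermatogonium markers 3 were tested, Dmrt1, Uchl1 and Stra8, and all 3 were above 0, against 55.9% of all genes. Summed over all 7, they had 33.5 to 43.2 RPKM in Middle and 28.1 to 33.5 RPKM in Control. The lowest Middle sum was thus about equal to the highest Control sum. Among the untested markers Gfra1 was lower in Middle, at 0.39 to 0.40 RPKM against 0.47 to 0.49 RPKM in Control. Sall4, Kit and Zbtb16, also untested, had higher means in Middle. The 11 tested replication-cluster genes had a median log2 fold change of 0.05, against 0.15 for the DNA replication list. H2ac19, H2ac18 and H2ac21, at 0.34, 0.22 and 0.21, lay above the list's median, and the others, at most 0.08, lay below it. Most of these others had low values, where the log2(RPKM + 1) scale makes changes look smaller. The difference between the medians was not tested.

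Variants named outside the rule had overlapping groups as well. H2ap, an X-linked H2A-like gene, had 184, 148 and 180 RPKM in Middle and 168, 165 and 169 RPKM in Control. H2ab1, H2ab3 and H2bw2 had log2 fold changes of 0.25, 0.16 and 0.13, none of which passed. Cenpa, the centromeric H3 variant, averaged 0.45 RPKM in Middle and 0.37 RPKM in Control and was not tested.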

How the data were processed

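RNA-seq libraries were made from testis RNA with a messenger RNA kit, per the labels' protocols. Trimming used fastp 0.23.0 with GRCm39 as the build, per the submitters' processing notes, while aligner, counting rule and strandedness were not given in the sources used here. RPKM, reads scaled to gene length and library size, were deposited by the authors for 38715 genes. Multiplied by gene length, 100% of values were whole multiples of 1 read within 0.001, so reads were recovered.

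The test was limma-trend (limma 3.58.1, R 4.3.3) on log2(RPKM + 1) over all 6 libraries, for the 15040 genes whose mean reached 1 RPKM in either group. Fold changes are on that scale, which makes changes of low genes look smaller. Tested on simulated data, the fit found most changed genes and made too many false calls among short genes with few reads. The simulated libraries had no GC trend, no outlying library and the same relative spread for every gene. Changes as small as those of most members were not simulated, so the simulation does not show whether such changes would be found. With recovered reads, limma-voom was the alternative. Other settings were pseudocount 0.1, filters, scalings, GC removal, a replicate block, pooled copies and each library left out.

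Members and lists were chosen with earlier results of these data known. Every tested member is named; values per library are given for a preset set, the 6 highest and the 4 smallest p per class. Stem-loops, GC and shared 50-base windows came from GENCODE M21 (GRCm38), promoters from RefSeq. No libraries were duplicates.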

Additional observations from a re-analysis of the deposited data

How the results depend on the processing

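No member passed under any of the 16 alternative fits. Pooling of near-identical copies, 1 of these fits, was chosen after seeing the data. Each time 0 members were called, and the lowest adjusted p of a member was 0.098, for H2ax with limma-voom. The count of all genes called was 8 to 10 under pseudocount 0.1, both scalings, limma-voom and GC removal, and 0 with no filter, with the filter of 10 reads in 3 libraries, with the replicate block and with the block and GC removal together. Leaving out 1 library gave 0 to 3 genes, 3 without Control 1, 1 without Middle 1 and 0 for the rest. Same-numbered deviations correlated at -0.15, -0.12 and 0.0054, so no pairing by number was seen. With so few libraries per group, these values cannot exclude one.

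Class medians kept their sign in every setting run. Leaving out 1 library gave 0.0058 to 0.13 for replication-cluster genes, -0.12 to -0.011 for testis variants and 0.12 to 0.20 for replacement histones. The summed reads of replication-cluster genes gave 0.31. The chaperone median was 0.037 with upper-quartile scaling and 0.047 with GC removal, alone or with the block, and the mRNA processing median was 0.030 with GC removal, alone or with the block, and -0.036 to 0.012 with 1 library left out.

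The sign of the log2 fold change stayed the same for 27 of 48 members, H2ax, H1f10, Macroh2a1, H2ac19, H2ac1, H1f7, H1f9 and H2bl1 among them. Upper-quartile scaling gave H2al2a -0.0093, H2al1k -0.0070 and H2af-ps2 -0.014, and moved the median of all genes to -0.0038. GC removal, with or without the block, gave H2bc22 -0.017, H2al2a -0.0028, H2bc21 0.037, H2al1k -0.010 and H2af-ps2 -0.061. Pooled copies gave H3c1 0.051. With 1 library left out the ranges were -0.059 to 0.15 for H2bc4, -0.045 to 0.024 for H2bc21, -0.13 to 0.028 for H2al1a, -0.11 to 0.038 for H2al1b, -0.15 to 0.12 for H2al1f, -0.21 to 0.057 for Macroh2a3, -0.22 to 0.029 for H3f3a-ps1, -0.066 to 0.034 for H2ac25, -0.023 to 0.19 for H1f2, -0.030 to 0.074 for H2al1k, -0.052 to 0.14 for H2al1g, -0.057 to 0.098 for H2af-ps2, -0.12 to 0.087 for H3c1, -0.17 to 0.055 for H2ac20, -0.026 to 0.15 for H2al1c, -0.19 to 0.048 for H2al1i, -0.032 to 0.16 for H4c1, -0.045 to 0.081 for H2al2a, -0.27 to 0.076 for H1f6, -0.022 to 0.091 for H3f3a and -0.013 to 0.15 for H2bc22. The cause was not tested. Few reads limit what can be said of the 50 replication-cluster genes below the filter, and of members such as H2al1j with 86 reads. Why those 50 genes had few reads was not tested.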
